A study of Mus musculus with 12 samples.

Results

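Genes of fat storage and fat entry were followed in mouse liver: Plin2, Plin4, Plin5, Cideb, Cidec, Pnpla2, G0s2, Cd36, Lpl and Fabp4. They were chosen by name for their roles and are 10 of the 22564 genes in the expression table. Of them, 9 passed the filter used for comparisons (a mean of at least 1 FPKM over both libraries), as did 9584 genes in all. FPKM is a fragment count divided by transcript length and by a library's size. Plin4 and Lpl passed through 1 library alone, since each was below 1 FPKM in the other. Cidec did not pass.

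The livers came from male C57BL/6 mice aged 8 weeks, either wild type or lacking Mettl3 in the liver by a conditional knockout (cKO). Mettl3 is the enzyme that writes N6-methyladenosine (m6A) into mRNA. The labels list 12 samples, 3 in each of 4 groups: immunoprecipitated (IP) and input RNA of each genotype. How the knockout was driven, and which stretch of Mettl3 was deleted, is not given in the labels. The values that could be tied to a genotype came from 1 input library and 1 m6A peak list per genotype, named control and case. Control is taken to be wild type and case to be cKO, which the labels do not state, so the libraries go by their own names, control and case.

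With 1 library per genotype the differences have no replicate check and hold for these libraries, not for the genotypes. Recovered fragments numbered 1737347 for control input and 3564803 for case input, of which 1317 and 2007 belonged to the 10 genes. Intervals are 95% intervals that cover counting error only. They treat each fragment as a separate molecule, and copies made by PCR were not removed here, so such copies would make the intervals too narrow. Mettl3, the check of the labels, stood at 3.44 FPKM in the control input (12 fragments) and 2.91 FPKM in the case input (17 fragments). Its scaled fragments had a ratio (case over control) of 1.21, interval 0.545 to 2.78, and the depth did not show whether the case library had lost the transcript. Of the 6 hepatocyte markers (Alb, Ttr, Apoa1, Serpina1a, Cps1, Hnf4a) all were present in both inputs. As deposited 5 of 6 were higher in the case input by at least 2-fold (Alb was not), against 23.6% of all compared genes. With equal totals 4 were higher (7.92% of all), and after quantile normalization 2 (14.2% of all). The median differences on the log2(FPKM + 1) scale were 1.86, 1.12 and 0.61 in that order. The summed level of these markers, 12780 FPKM in the control input and 26090 FPKM in the case input, was mostly Alb, at 11190 and 21160 FPKM.

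Hepatocytes keep surplus fatty acids as triglyceride in lipid droplets, whose surface carries proteins that guard the fat or recruit the enzymes that release it. Perilipins coat the droplet, CIDE proteins govern droplet size and the loading of lipoproteins, and the lipase encoded by Pnpla2 (ATGL), with its inhibitor G0s2, sets the first step of breakdown. Fatty acids reach tissue through lipoprotein lipase (Lpl) at the vessel wall, the membrane receptor CD36 and intracellular carriers such as Fabp4, and in the liver several of these are also made by cells other than hepatocytes.

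The start regions of 8 of the genes were found in RefSeq sequence (GRCm38.p6, the same coordinates as mm10), in 10 windows that run from 250 bases before to 50 bases after a gene's start. The perilipin genes Plin4 and Plin5 lie one behind the other on the minus strand of chromosome 17 with 1648 bases between them. Each has a window with the letters TATAA between bases -40 and -11, where a TATA box usually lies. The starts of these windows lie inside the RefSeq spans of the genes, and Plin5 has a further window without TATAA in that stretch. The 4 lines give those 30 bases for Plin4 (chr17:56109793-56109822, minus strand), Plin5 (chr17:56117559-56117588, minus strand), Cideb (chr14:55758435-55758464, minus strand) and G0s2 (chr1:193273199-193273228, minus strand), the members that were higher in the case input, 5′ to 3′ with TATAA in capitals.
Plin4: ccagacccTATAAggcttggggattgggcg
Plin5: cacccagacctgcTATAAggacggagggct
Cideb: ctcttcgactttgtccctcttactgaccag
G0s2: ccaccaccccccgctgccactcccgccccg
On the sense strand TATAA was present in this stretch in 1246 of 32851 windows of all genes (3.8%) and in 2 of the 10 windows of these genes. In the 250 bases before the start, on both strands, AGGTCA, the letters of a nuclear receptor half-site, occurred in the windows of Plin2, Cd36 and Plin5 (3 of 10, against 14.0% of all windows). CCAAT occurred in 4 of 10 windows (33.8% of all), those of Plin2, Cd36, Plin4 and Plin5, and CACGTG in 0 of 10 (6.0% of all). A match describes letters, not a bound site, and a missing match says only that the letters are not in that window.

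Several droplet genes stood higher, and all 3 uptake genes lower, in the case input. Plin4, Plin5, Cideb and G0s2 were higher by at least 2-fold (a difference of log2(FPKM + 1) of at least 1), which was 4 of the 9 compared genes, and 23.6% of all compared genes were higher by this rule. Cd36, Lpl and Fabp4 were lower, 3 of 9, against 13.2% of all compared genes. Plin2 and Pnpla2 differed by less than 2-fold. The median difference was 0.87 over the 9 genes and 0.41 over all compared genes. The deposited FPKM left the library totals unequal. When both were scaled to equal totals of non-mitochondrial fragments, which lowers each ratio by 0.74 on the log2 scale, 2 genes were higher (Plin5 and Cideb) and the same 3 were lower, and the medians were 0.15 and -0.15. The share of all compared genes past the threshold was then 7.92% higher and 20.8% lower. As deposited, hepatocyte markers were higher beside the droplet genes, Cps1 at 63.5 and 532.9 FPKM and Hnf4a at 19.1 and 77.7 FPKM, control before case. The part of hepatocyte RNA in the differences of the droplet genes was not tested.

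**Figure D1:**
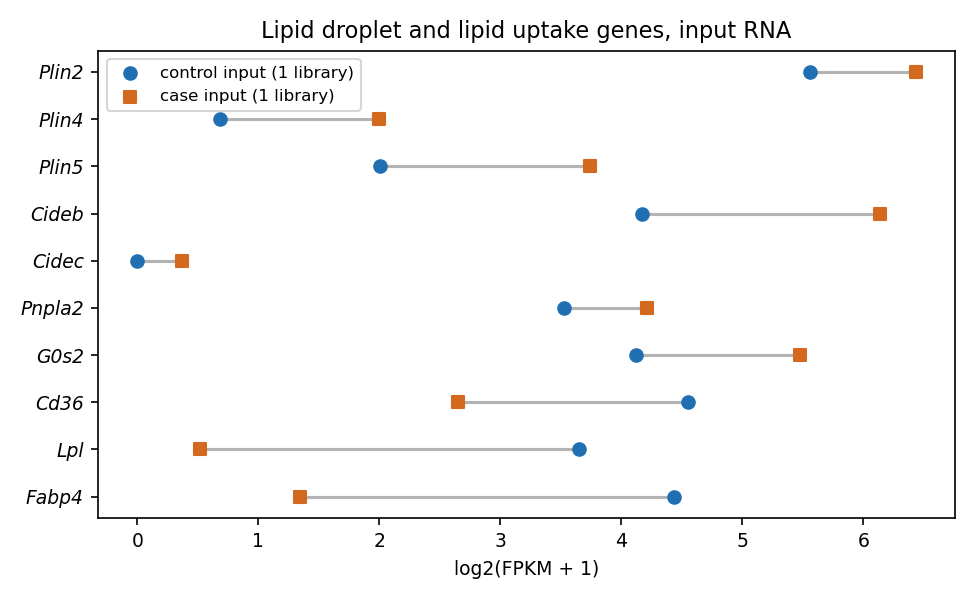
Level of each of the 10 genes on the log2(FPKM + 1) scale in the control input (circles) and the case input (squares), 1 library each. Cd36, Lpl and Fabp4 lie further left in the case input and the other 7 further right, with Cidec near 0 in both.

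Plin2, the perilipin present on droplets of nearly every cell, had the highest level of the set in both libraries (chr4:86648386-86670060, minus strand, mm10). It measured 46.2 FPKM in the control library (345 fragments) and 85.4 FPKM in the case library (765 fragments). Scaled fragments had a ratio, case divided by control here and for the genes that follow, of 1.89, interval 1.67 to 2.16. This difference of 0.87 on the log2(FPKM + 1) scale was under the threshold, shrank to 0.15 with equal totals and was -0.06 after quantile normalization, so its direction depended on the scaling.

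Plin5, a perilipin of tissues that burn fat, ties droplets to mitochondria and had a larger difference (chr17:56111601-56117596, minus strand, mm10). It measured 3.01 FPKM in the control library (31 fragments) and 12.4 FPKM in the case library (149 fragments). The ratio of scaled fragments was 4.11, interval 2.77 to 6.26, and the difference of log2(FPKM + 1) was 1.74. Over 8 settings (7 alternatives of scaling, pseudocount or filter beside the one used) the difference stayed past the threshold, between 1.11 and 2.01. The alternatives of filter change which genes are compared and leave a gene's difference as it was, so they add no separate check of it. Plin5 relative to Plin2 is a ratio of FPKM within a library, which a single factor per library cannot alter, though quantile normalization can. It was 0.0652 (interval 0.0436 to 0.0942) in the control input and 0.145 (interval 0.121 to 0.173) in the case input, and these intervals did not overlap.

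Plin4, a perilipin with long repeats that binds early droplets in fat cells and muscle, was scarce. It measured 0.607 FPKM in the control library (19 fragments) and 3.0 FPKM in the case library (110 fragments). The ratio of scaled fragments was 4.95, interval 3.02 to 8.53, and the difference of log2(FPKM + 1) was 1.32. With equal totals the difference was 0.90 and with median centring 0.91, both under the threshold. It passed in 5 of the 7 settings that compared it, since its mean lies under the filter of 5 FPKM. Plin4 relative to Plin2 was 0.0131 (interval 0.00781 to 0.0208) in the control input and 0.0351 (interval 0.0285 to 0.0429) in the case input.

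Cideb, the CIDE protein of hepatocytes, promotes droplet growth and the lipidation of very low density lipoprotein. Its locus, on the minus strand of chromosome 14, is bundled with Nop9 in the table. It measured 17.0 FPKM in the control library (102 fragments) and 69.3 FPKM in the case library (479 fragments). The ratio of scaled fragments was 4.01, interval 3.23 to 5.02. The difference of log2(FPKM + 1), 1.97, passed the threshold in 8 of 8 settings, where it ranged from 1.19 to 2.02. Cideb ranked 4 in the control and 2 in the case library, and its FPKM relative to Plin2 was 0.368 (interval 0.292 to 0.460) in the control input and 0.811 (interval 0.722 to 0.910) in the case input.

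Cideb shares bases with neighbouring genes in RefSeq, 1583 with Nop9 and 503 with Ltb4r2, and the library kit named in the labels does not mark strand, so reads in the shared bases cannot be told apart. Nop9 stood at 1.72 FPKM in the control input and 1.55 FPKM in the case input, and Ltb4r2 at 0.138 FPKM and 0.589 FPKM. Both neighbours were far below Cideb in both libraries. Plin4 shares 19 bases with the gene listed as Hdgfrp2, which was at 5.95 FPKM in the control input and 5.80 FPKM in the case input. The RefSeq spans of Plin2 and Cidec share 5312 bases with Gm12551 and 1256 bases with Gm52871, and the same limit holds there.

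Cidec (FSP27), which fuses droplets in fat cells and in fatty liver, was listed at 0 in the control library and measured 0.294 FPKM in the case library (3 fragments), at chr6:113424634-113435760 on the minus strand. Both are at or under the floor of 3 fragments used here, so no ratio is given, and a difference was not detectable at this depth. In the same libraries the relatives Plin1 and Cidea, which coat and enlarge the droplets of fat cells, were listed at 0 in both.

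Pnpla2 (chr7:141454319-141460743, plus strand, mm10) measured 10.5 FPKM in the control library (85 fragments) and 17.5 FPKM in the case library (174 fragments). The ratio of scaled fragments was 1.75, interval 1.34 to 2.29. The difference of log2(FPKM + 1), 0.69, did not reach the threshold, and it was -0.00071 with equal totals.

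G0s2 (chr1:193272161-193273188, minus strand, mm10), the inhibitor of that lipase, measured 16.4 FPKM in the control library (64 fragments) and 43.6 FPKM in the case library (200 fragments). The ratio of scaled fragments was 2.67, interval 2.01 to 3.60, and the difference of log2(FPKM + 1) was 1.36. It passed the threshold in 5 of 8 settings, all of which kept the deposited scaling. It was 0.65 with equal totals, 0.95 with median centring and 0.59 after quantile normalization. The level of the inhibitor relative to its target, G0s2 over Pnpla2 in FPKM, was 1.56 (interval 1.11 to 2.18) in the control input and 2.49 (interval 2.02 to 3.07) in the case input. Counted in fragments, this ratio was 1.53 times as high in the case library, with an exact conditional interval of 1.02 to 2.28 that ends close to 1.

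**Figure D2:**
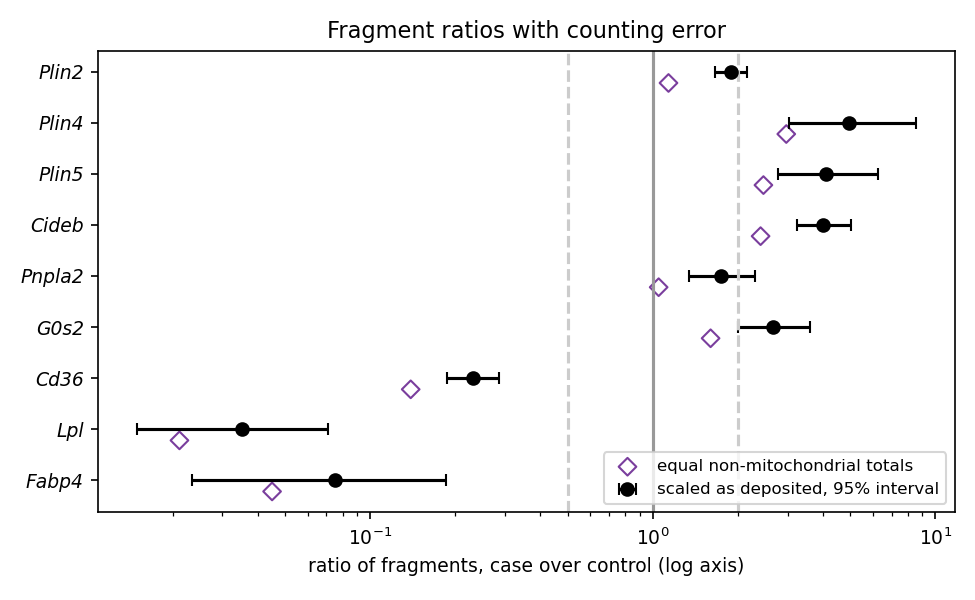
Ratio of fragments, case over control, for the 9 compared genes on a log axis. Filled circles with bars are the deposited scaling with its 95% interval of counting error, open diamonds the same ratio with equal non-mitochondrial totals, and dashed lines mark 2-fold. Plin4, Plin5 and Cideb lie past 2-fold by both scalings (without the pseudocount of 1 that keeps Plin4 under the threshold with equal totals) and Cd36, Lpl and Fabp4 lie below 1 by both, while Plin2 and Pnpla2 move close to 1.

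Cd36, the membrane receptor for long fatty acids and oxidised lipoproteins, is made by hepatocytes and also by endothelial cells and macrophages (chr5:17781690-17888959, minus strand, mm10). It measured 22.4 FPKM in the control library (420 fragments) and 5.26 FPKM in the case library (114 fragments). Scaled fragments were higher in the control input by a ratio of 4.31 with an interval of 3.50 to 5.35. The difference of log2(FPKM + 1), -1.90, passed the threshold in 8 of 8 settings.

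Lpl, which splits the triglyceride of circulating lipoproteins, is low in adult hepatocytes and present in macrophages of the liver (chr8:68880491-68907448, plus strand, mm10). It measured 11.5 FPKM in the control library (194 fragments) and 0.434 FPKM in the case library (8 fragments). Scaled fragments were higher in the control input by a ratio of 28.4 with an interval of 14.1 to 66.7, and the difference of log2(FPKM + 1) was -3.13. Relative to Plin2 in FPKM, Lpl was at 0.25 in the control library and 0.00509 in the case library.

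Fabp4, the fatty acid carrier of adipocytes, macrophages and capillary endothelium, behaved much like Lpl (chr3:10204347-10208576, minus strand, mm10). It measured 20.6 FPKM in the control library (57 fragments) and 1.54 FPKM in the case library (5 fragments). Scaled fragments were higher in the control input by a ratio of 13.4 with an interval of 5.40 to 42.7, and the difference of log2(FPKM + 1) was -3.09. Lpl and Fabp4 were lower past the threshold in 8 of 8 settings.

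Markers of the non-parenchymal cells of the liver differed in the same direction as these 3 genes. Of the Kupffer cell and macrophage markers 10 of 10 compared were lower in the case input, with a summed level of 645.5 FPKM in the control input and 16.2 FPKM in the case input. Of the sinusoidal endothelial markers 8 of 8 were lower, with sums of 264 and 30.7 FPKM, and of the stellate cell markers 6 of 6, with sums over all markers found in the table of 77.4 and 7.94 FPKM. No compared marker on these 3 lists was higher. Of all compared genes 13.2% were lower as deposited and 20.8% with equal totals. Csf1r, C1qc, Vsig4, Marco, Lyve1, Lrat, Col3a1 and Hgf were below 1 FPKM in the case input. They passed the filter through the control input alone, so they could only come out lower. In bulk RNA fewer cells of a type and less RNA per cell cannot be told apart. On the log2(FPKM + 1) scale the macrophage markers differed by -5.30 to -3.11, the endothelial markers by -3.44 to -2.35 and the stellate markers by -2.85 to -1.96.

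C1qc, a complement chain of macrophages, was at 68.7 FPKM in the control input and 0.766 FPKM in the case input, and the macrophage receptor Csf1r had 785 fragments in the control library and 0 in the case library. The endothelial scavenger receptor Stab2 was at 41.9 and 2.96 FPKM and the endothelial adhesion molecule Pecam1 at 19.9 and 1.58 FPKM, control before case. The stellate cell genes Dcn, a matrix proteoglycan, and Col3a1, a collagen, were at 37.1 and 7.45 FPKM in the control input and at 4.30 and 0.254 FPKM in the case input. The part of these cells in the differences of Cd36, Lpl and Fabp4 was not tested.

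Adipocyte markers were at or near 0 in both libraries. Of 8 adipocyte markers, 7 were at 0 in the control library and 6 in the case library, where Adipoq, the adipocyte hormone adiponectin, had 1 fragment. Lipe, a lipase that hepatocytes can also express at low level, was the other one, at 1.43 FPKM in the control input and 2.62 FPKM in the case input. Of these markers Plin1, Cidea and Lipe also stand on the pathway lists used here. All 5 muscle markers were at 0 in both. A listed 0 is not proof of absence, since 8 of 13 mitochondrial genes, which every cell uses, were also listed at 0 in the control library and 0 of 13 in the case library. The 57 Fabp4 fragments of the control input were counted beside 0 listed fragments of Adipoq, Lep, Retn, Cfd and Adig.

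The order of the genes by FPKM differed between the libraries. In the control input Plin2 led and stood apart from all others. Cd36 at 22.4, Fabp4 at 20.6, Cideb at 17.0 and G0s2 at 16.4 FPKM came next, then Lpl at 11.5 and Pnpla2 at 10.5 FPKM, and over these 6 genes each interval overlapped that of its neighbour. Plin5 and Plin4 were lower and separate from their neighbours, and Cidec was listed at 0. In the case input Plin2, Cideb, G0s2, Pnpla2, Plin5, Cd36 and Plin4 followed in that order with intervals that did not overlap between neighbours. Below them Plin4, Fabp4, Lpl and Cidec overlapped from each to the next. Together Plin2, Cideb and G0s2 held the top 3 places in the case input, against places 1, 4 and 5 in the control input.

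The other genes of these pathways were counted from 6 lists of 66 genes chosen by role. Of 57 compared, 27 were higher and 5 lower in the case input, with a median difference of 0.98 against 0.41 for all compared genes. Among the 5 lower genes, Hilpda, Fabp7 and Pparg were below 1 FPKM in the case input and passed the filter through the control input alone. With equal totals 10 were higher and 5 lower, with a median of 0.28 against -0.15, and after quantile normalization 10 were higher and 4 lower. The share of all compared genes that were higher, 23.6% as deposited, was 7.92% with equal totals and 14.2% after quantile normalization. The share that were lower was 13.2%, 20.8% and 15.8% in the same order. The counts of higher genes that follow are as deposited, then with equal totals, then after quantile normalization.

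Among the droplet coat and size genes 3, 1 and 1 of 8 compared were higher, and 1 was lower in each (median 0.83 as deposited). Fitm2, an endoplasmic reticulum protein needed for droplet formation, was at 1.92 FPKM in the control input and 9.0 FPKM in the case input, and the droplet enzyme Hsd17b11 was at 11.0 and 30.3 FPKM. Hilpda, another inhibitor of the lipase encoded by Pnpla2, differed in the other direction from G0s2, at 5.54 FPKM in the control input (26 fragments) and 0.727 FPKM in the case input (4 fragments). Among the triglyceride breakdown genes 3, 0 and 0 of 8 were higher and 0 lower (median 0.85), led by the carboxylesterase Ces1d at 129.5 and 402 FPKM and the phospholipase Pnpla8 at 5.72 and 14.8 FPKM.

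Of the fatty acid uptake and binding genes 7, 3 and 2 of 11 were higher, and 1 was lower in each (median 1.36). Acsl1, which activates fatty acids with coenzyme A, was at 31.3 FPKM in the control input and 182 FPKM in the case input. The transporter and acyl-CoA synthetase Slc27a2 was at 90.4 and 369.5 FPKM. The brain-type carrier Fabp7 was at 4.87 FPKM in the control input (18 fragments) and listed at 0 in the case input, and the epidermal carrier Fabp5 was at 6.75 and 6.21 FPKM.

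Of the lipoprotein hydrolysis and receptor genes 7, 1 and 0 of 12 were higher, and 1 was lower in each (median 1.04). The lower one was Gpihbp1, the endothelial protein that holds lipoprotein lipase at the capillary surface, at 13.4 FPKM in the control input (49 fragments) and 2.57 FPKM in the case input (11 fragments). Apoc3 and Angptl4, which inhibit the lipase, were higher as deposited, Apoc3 at 229 and 992 FPKM and Angptl4 at 20.5 and 57.3 FPKM. So were genes that act in its favour, chosen after their values were seen: its cofactor Apoc2 at 27.5 and 70.7 FPKM, Apoa5 at 113.7 and 292.9 FPKM and the maturation factor Lmf1 at 5.01 and 12.9 FPKM. Vldlr, the very low density lipoprotein receptor, was at 1.40 and 1.07 FPKM.

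Of the triglyceride synthesis and export genes 3, 2 and 3 of 7 were higher and 0 lower (median 0.72). Gpam, which catalyses the first acylation of glycerol phosphate, was at 3.39 FPKM in the control input and 20.5 FPKM in the case input, and Dgat2, which adds the last fatty acid, at 29.7 and 126.5 FPKM. Of the PPAR receptors and targets 4, 3 and 4 of 11 were higher and 2, 2 and 1 lower (median 0.87). The receptor Ppara was at 7.41 and 40.9 FPKM, while Pdk4, a kinase that spares glucose, was at 16.8 and 5.76 FPKM and the adipose receptor Pparg at 1.78 and 0.376 FPKM.

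**Figure D3:**
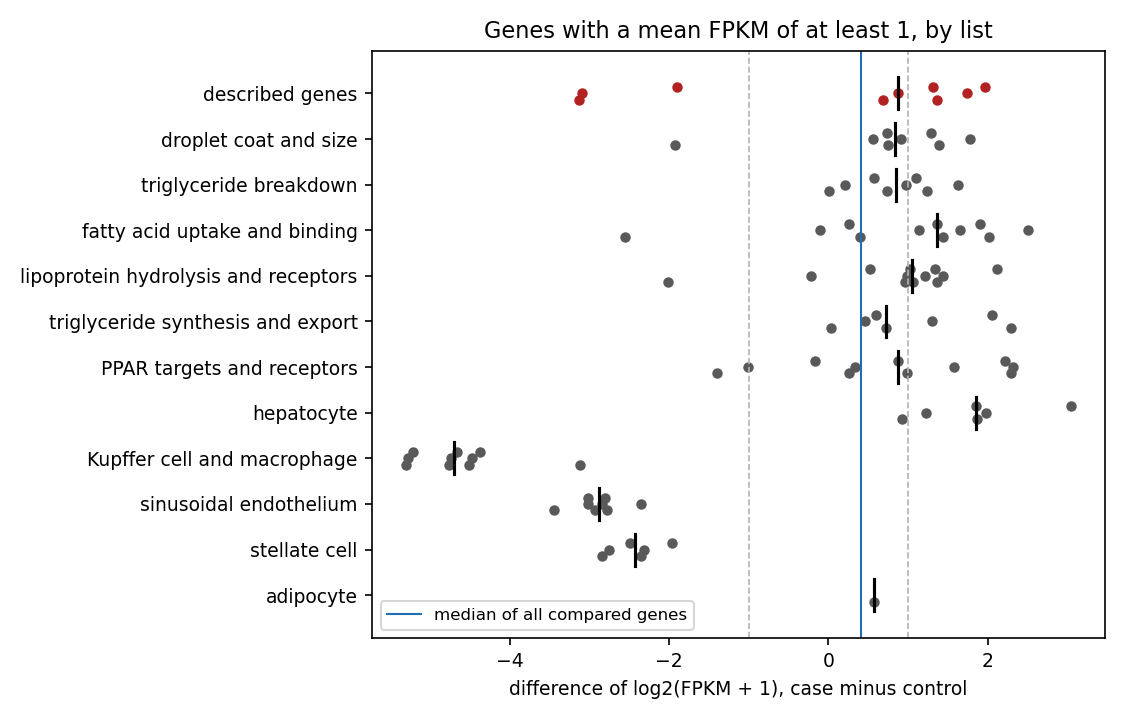
Difference of log2(FPKM + 1), case minus control, for every compared gene of each list, 1 point per gene. Black bars are list medians, the blue line is the median of all compared genes and dashed lines mark 2-fold. The macrophage, endothelial and stellate cell lists lie wholly below -1, as do Cd36, Lpl and Fabp4, while the medians of the 6 pathway lists lie between 0.72 and 1.36 and that of the hepatocyte list at 1.86.

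The m6A peak lists, 1 for each genotype, placed 12 peaks in these genes in the control list and 14 in the case list. Peaks were called by the authors, and the fold and false discovery rate given here are theirs and are read within a list only. In the control list 7 of the 10 genes carried a peak, against 65.6% of all compared genes, and in the case list 5 of 10, against 65.4%. Plin4, Plin5, Cd36 and Fabp4 carried peaks in both lists (4 of 10, against 49.2%), and Cideb and Cidec in neither (2 of 10, against 18.2%). The shares are of compared genes, which leave out Cidec, while the counts of 10 include it. Of the control peaks 5 of 12 were overlapped by a case peak, against 35.5% of all control peaks, and of the case peaks 5 of 14, against 35.3%.

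The peaks were divided unevenly between the genes. The 4 genes higher in the case input carried 5 control peaks and 3 case peaks, the 3 lower genes 3 control peaks and 11 case peaks, and Plin2 and Pnpla2 together 4 control peaks and 0 case peaks. Of the 11 case peaks in the lower genes 7 lay in Cd36, whose RefSeq span of 107270 bases is the longest of the set. The same split over all compared genes was not counted, so these numbers do not show whether it is unusual. The part of the input level in where peaks were called was not tested. The lists also differ in the error rate of their peaks, with a median false discovery rate of 1.66% over the control list and 12.3% over the case list.

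Plin4 and Plin5 carried broad peaks that met between the lists. In Plin4 the strongest control peak (chr17:56106096-56107203, 368-fold, above 99.3% of the control list by fold) shared 585 bases with a case peak (chr17:56106619-56107374, 8.53-fold). Another control peak (chr17:56103795-56105522, 90.2-fold) and case peak (chr17:56104354-56105522, 3.67-fold) shared 1169 bases. That case peak had a false discovery rate of 21.6%, the highest of any peak in these genes. The third control peak, 83.4-fold, had no case partner. Plin4 had 19 fragments in the control input. In Plin5 a control peak (chr17:56111914-56112499, 31.6-fold) and a case peak (chr17:56111601-56112309, 19.2-fold) shared 396 bases close to the end of the gene, where the case peak stopped 4 bases short of the annotated end.

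Plin2 carried 3 control peaks and no case peak, with the highest input level of the set in both libraries. The strongest by fold was a peak of 19 bases (chr4:86660088-86660106, 18.4-fold). Another, of 116 bases (chr4:86669945-86670060, 15.5-fold), lay over the start used for its RefSeq window and reached 1 base past it. G0s2 carried 1 control peak of 389 bases (chr1:193272260-193272648, 31.4-fold) in a gene of 1029 bases, and Pnpla2 1 control peak (chr7:141458592-141458759, 10.3-fold), both without a case peak. No peak was named for Cideb. In the locus bundled with Nop9, 1 control peak (chr14:55749992-55750133) was named for Nop9. It lay outside the RefSeq span of Cideb (chr14:55754052-55758424).

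Cd36 carried 2 control peaks and 7 case peaks. One pair, near the end of the gene, nearly coincided, with 349 shared bases (control chr5:17782655-17783011, 5.97-fold, and case chr5:17782663-17783024, 12.5-fold). The strongest control peak (chr5:17835745-17835896, 14.2-fold) ended at the first base of a RefSeq start inside the long locus. The strongest case peak, 127-fold (chr5:17828775-17828984), carried a false discovery rate of 17.9%, the highest of the Cd36 peaks.

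Fabp4 carried the same 173 bases in both lists (chr3:10205950-10206122), at 10.5-fold in the control list and 70.8-fold in the case list, with 5 Fabp4 fragments counted in the case input. Lpl carried 3 case peaks and no control peak, from a gene with 194 fragments in the control library and 8 in the case library. The strongest of them lay near the middle of the gene (chr8:68892596-68892774, 15.7-fold), and the other two lay 405 and 1097 bases from its end.

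The start sequences of Plin2 and Cd36 show the bases under the control peaks at their starts. The first line is the first 30 bases of Plin2 (chr4:86670030-86670059, minus strand) and the second bases 21 to 50 of Cd36 (chr5:17835847-17835876, minus strand), from RefSeq and GRCm38.p6, 5′ to 3′. Capitals mark AGAC, one of the 4-letter forms in which m6A is commonly written.
Plin2: tggctcggaggcttgggcggggcagtcaag
Cd36: ttcaccagaaatAGACccttgtgagcttaa
In the first 50 bases on the sense strand AGAC occurred in the windows of Cd36 and Pnpla2 (2 of 10, against 17.4% of all windows). GGAC, the other form searched, occurred in those of G0s2, Plin4 and Plin5 (3 of 10, against 18.9%), for Plin5 in its window without TATAA. Neither was in the first 50 bases of Plin2.

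**Figure D4:**
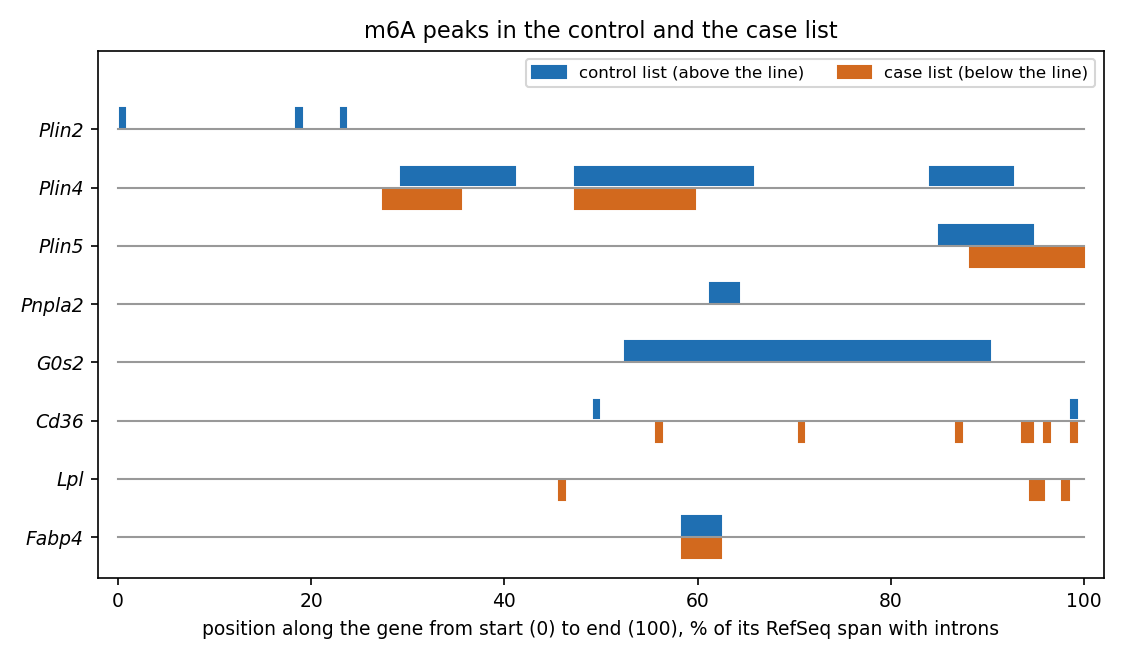
Peaks of the 8 genes that carry any, along each gene from its start (0) to its end (100) in percent of the RefSeq span with introns, control list above the line and case list below it. Very short peaks are drawn wider than they are. Control and case peaks meet in Plin4, Plin5, Cd36 and Fabp4, Plin2, Pnpla2 and G0s2 have control peaks alone, and Lpl has case peaks alone.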

How the data were processed

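The authors deposited FPKM per gene for input RNA, with a signal headed as counts that is a scaled count: dividing it by the smallest step (1.085 in the control input, 0.927 in the case input) gave fragments that were whole within 0.02 for 92.6% and 91.7% of the values above 0. Per the file headers, each peak of the deposited lists has a fold enrichment (a ratio), a false discovery rate in percent and a score, -10 times the log10 of the p-value. Cufflinks, Cuffdiff, HISAT2 2.0.4, cutadapt 1.9.3 and the build mm10 are named, without roles, per the submitters' processing notes. Peak names begin with MACS, whose settings the sources used here do not give. A further 8 columns and 4 peak lists have names that match no label and were not used.

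Genes outside the mitochondrial chromosome with a mean FPKM of at least 1 were compared on the log2(FPKM + 1) scale, as case minus control, a scale that understates fold changes of low genes. The threshold was 1 (2-fold). The limma test planned for replicated libraries could not be run with 1 library per genotype, so no p-value is given. Intervals are Clopper-Pearson for ratios, exact conditional for a ratio of ratios and exact Poisson for fragments. Levels between genes were compared by FPKM, with the Poisson interval of the fragments. Calls were tested on data simulated from the control library with no difference in depth, where the changed genes had a higher level than Plin4 and Plin5. Ratio intervals were tested at simulated mean counts above the case counts of Lpl and Fabp4. Neither check covers genes as scarce as these. Peaks were assigned by the gene name in the lists, overlap was at least 1 base, and coordinates count from 1. No exon annotation was used, so peaks are not assigned to exons or UTRs.

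The 10 genes, the 6 pathway lists and the marker lists were chosen with earlier results of these data known. Named beside the 10 genes were the genes with the 2 largest differences in each direction on each list, apart from 1 gene that is not reported here. Sequence outside the start windows and protein sequence were not used here. Python 3.11.15, numpy 2.4.6, pandas 2.3.3, scipy 1.17.1 and matplotlib 3.10.9 were used.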

Additional observations from a re-analysis of the deposited data

How the results depend on the processing

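Of the 10 genes, 3 were lower in each of the 8 settings (Cd36, Lpl and Fabp4), and Plin5 and Cideb were higher in each. The settings that change the filter alone repeat the same difference for a gene. The number of higher genes was 4, against 23.6% of all compared genes. It became 2 with equal non-mitochondrial totals (7.92% of all) and 2 with median centring (11.6% of all), which took away Plin4 and G0s2. After quantile normalization it was 3 (14.2% of all), without G0s2. Plin2 and Pnpla2 were above 0 in 7 of 8 settings and at -0.06 (quantile normalization) and -0.00071 (equal totals) in the other. Of the 57 companion genes 27 were higher, but 10 with equal totals, 15 with median centring and 10 after quantile normalization, where the first 2 lower the case library as a whole and for quantile normalization the cause was not tested. Of them 5 were lower, but 2 with a mean FPKM of at least 5, which compares 45. Among the 5000 peaks of highest fold, which keeps fewer peaks, the control list held 3 peaks of the 10 genes in 1 gene and the case list 2 in 2 genes. Of these 3 control peaks 0 met a case peak. The overlap over all of the 5000 peaks was not counted, so this does not show whether it is unusual. Stricter error rate or fold limits, assignment by locus and a larger overlap kept each peak count within 1.5 times of that in the setting used. The error rate limit, 15%, could not remove a control peak, since the highest rate in that list was 7.52%. Assignment by locus added only peaks named for Nop9 and Hdgfrp2, which lay outside the RefSeq spans of Cideb and Plin4. No paired analysis was possible because 1 library per genotype could be tied to a label, and for the same reason no replicate was left out in turn. Lpl and Fabp4 rest on 8 and 5 case fragments and Cidec on 3 in all, which limits their ratios most.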
